A study of Homo sapiens with 6 samples.

Results

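The MYC and MAX network genes are the 10 human genes MYC, MYCN, MYCL, MAX, MLX, MXD1, MXD3, MXD4, MNT and MGA, taken by an exact match of their symbols. They are 10 of 32917 genes in the expression table, and all 10 were matched. They hold 44 of 42634 listed m6A peaks, with at least 1 peak in each of the 10 genes. In the comparison of peaks between treatments they hold 23 of 19983 tested peaks, in 9 genes, since MXD4 had no tested peak.

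The data come from Kasumi-1 cells, whose label gives the genotype as WT. This established human cell line of acute myeloid leukaemia is known to carry the RUNX1-RUNX1T1 fusion. Both groups of libraries had the same exposure of 24 hours to 100 uM CoCl2, a hypoxia mimic, with 10 nM echinomycin, which blocks DNA binding by HIF-1. In methylated RNA immunoprecipitation sequencing, RNA fragments are pulled down with an antibody to N6-methyladenosine (m6A), a methyl mark on mRNA. The pulled-down RNA (IP) and the RNA before the pulldown (input) were sequenced, with 3 IP and 3 input libraries from 3 biological replicates. The values for IP come as 1 number per peak over all replicates, so only input levels carry a replicate error. The authors also compared this group with CoCl2 alone, from libraries that were not analysed here.

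MYC, MYCN and MYCL are transcription factors of growth and proliferation that bind DNA only as dimers with MAX. MXD1, MXD3, MXD4, MNT and MGA compete for MAX, and the dimers they form repress transcription at the same E-box sites, whose core letters are CACGTG. MLX is a MAX-like protein that pairs with some MXD proteins and MNT, and with the glucose-sensing factors MLXIP and MLXIPL. MYC mRNA is short-lived and is a known target of the IGF2BP m6A readers, which stabilise it. The methyltransferase that writes m6A favours an adenosine within GGAC. The antibody also binds the methylated adenosine found next to the cap of some mRNAs, so a peak at a transcript start can hold either mark.

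Short sites from the RefSeq start windows of GRCh38.p14 are shown because several of the members had a peak that reached a transcript start and because the network binds E-boxes. Windows of 250 bases before to 50 bases after the RefSeq start were found for 9 of the 10 genes, in 12 windows, and MYC was not matched. GGAC was searched on the transcribed strand in the 50 bases after the start. It lay in 4 windows, 1 each of MYCN, MAX, MGA and MNT, against 18.9% of all 35116 windows. These 4 genes each had a listed peak at distance 0 from the start of an assigned transcript. So did MXD1, MXD3 and MXD4, whose windows hold no GGAC there, and MYC, which has no window. The assigned transcript need not start at the gene start. In MXD1 and MXD3 such peaks begin 18736 and 870 bases from the annotated gene start, so peak and window can lie apart. Sites and peaks were not overlaid, since the build of the tables is not named. CACGTG, which reads the same on both strands, was searched in the whole window of 300 bases. It lay in 3 windows, 1 each of MLX, MXD4 and MNT, against 7.26% of all windows. Capitals mark the motif, and each site is written 5′ to 3′ on the strand of its gene. The distance is that of the motif's first base from the RefSeq start of its window. That start can differ from the annotated gene start used for the peaks, as it does for MAX. A match describes the letters and shows neither methylation nor binding.
MYCN, GGAC at base 23 of the transcript, chr2:15940559-15940588, plus strand: cagtcatctgtctGGACgcgctgggtggat
MAX, GGAC at base 25, chr14:65102243-65102272, minus strand: ggttgtcaggcggGGACagcggccggggct
MGA, GGAC at base 36 from one of its starts, chr15:41660425-41660454, plus strand: ctcttcagctggagcGGACacacggtgtgc
MNT, GGAC at base 31, chr17:2401014-2401043, minus strand: tttcttgtcggcgGGACtcccgggggccgc
MNT, CACGTG 193 bases before the start, chr17:2401236-2401265, minus strand: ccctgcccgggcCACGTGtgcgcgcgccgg
MXD4, CACGTG 238 bases before the start, chr4:2262330-2262359, minus strand: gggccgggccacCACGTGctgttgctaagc
MLX, CACGTG 50 bases before the start, chr17:42567038-42567067, plus strand: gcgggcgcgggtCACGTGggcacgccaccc

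The label of the cells was checked in the 3 input libraries. All 7 markers fixed for Kasumi-1 myeloblasts were at 1 FPKM or more, with a summed level from 127.0 to 137.4 FPKM. FPKM is a fragment count scaled to transcript length and to the mapped fragments of a library, so levels of different genes can be set side by side. Of the T cell markers CD3E was at 0.181 and CD3D at 32.1 FPKM, and of the epithelial markers KRT8 was at 0.456 and EPCAM at 8.79 FPKM. The summed level of the 2 B cell markers was at most 1.11 FPKM, and HBB and COL1A2 were not analysed here. In bulk RNA, fewer cells of a type and less RNA per cell cannot be told apart.

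In the input RNA the MAX-binding repressors MXD4 and MXD1 had the highest levels of the network, and MYCN and MYCL the lowest. MXD4 read 31.0, 29.8 and 30.5 FPKM in replicates 1, 2 and 3, a mean of 30.4 ± 0.633 (SD, n = 3). MXD1, a repressor known to rise as myeloid cells differentiate, read 28.3, 26.4 and 29.0 FPKM, a mean of 27.9 ± 1.34 FPKM (SD, n = 3). Every MXD4 value lay above every MXD1 value. The partners followed, with MLX at 18.2, 15.8 and 17.8 FPKM, a mean of 17.3 ± 1.27 (SD, n = 3). MAX, the partner that all MYC proteins need, read 14.6, 15.3 and 15.6 FPKM, a mean of 15.2 ± 0.478 (SD, n = 3). The ranges of MLX and MAX did not overlap, though the lowest MLX and the highest MAX value lay close together.

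MYC itself was at 5.74, 4.63 and 5.92 FPKM, a mean of 5.43 ± 0.700 (SD, n = 3), which put it at percentile 50.4 of all genes with a mean of 1 FPKM or more. Its replicate 2 was the lowest of the 3. MXD3, a repressor expressed in dividing cells, was at 4.22, 5.59 and 4.90 FPKM, a mean of 4.90 ± 0.686 (SD, n = 3). MNT, a repressor present in most cell types, was at 4.24, 4.96 and 4.81 FPKM, a mean of 4.67 ± 0.380 (SD, n = 3). MGA, a very large protein that brings MAX to a Polycomb-type repressor complex, was at 4.38, 3.97 and 4.08 FPKM, a mean of 4.14 ± 0.211 (SD, n = 3). Neighbours in this run of 4 genes, from MYC down to MGA, had overlapping ranges, so the order of adjacent genes is not resolved, while the ranges of MYC and MGA did not overlap. MYCN read 1.26, 1.44 and 0.989 FPKM, a mean of 1.23 ± 0.226 (SD, n = 3). MYCL read 0.652, 0.553 and 0.458 FPKM, a mean of 0.554 ± 0.0974 (SD, n = 3), the 1 member under the limit of 1 FPKM used here for an expressed gene. All MYC values lay above all MYCN values, and those above all MYCL values.

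Within each library, MXD4 was 5.40, 6.43 and 5.16 times MYC and MXD1 was 4.93, 5.70 and 4.89 times MYC. MAX was 2.55, 3.31 and 2.63 times MYC. Summed over the 3 MYC family genes the level was 7.21 ± 0.534 FPKM (SD, n = 3), against 72.0 ± 1.31 (SD, n = 3) summed over MXD1, MXD3, MXD4, MNT and MGA. These are RNA levels under 1 condition, and protein was not measured.

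**Figure D1:**
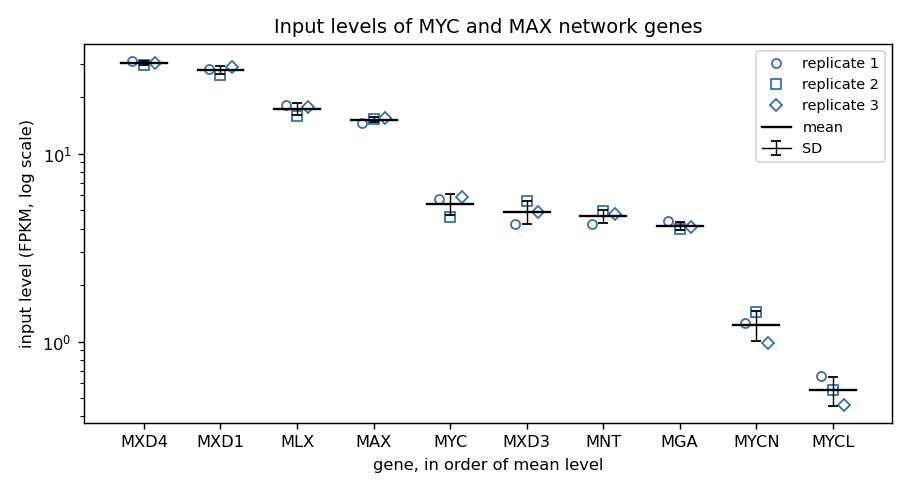
Input level in FPKM (log axis) of the 10 genes in order of their mean, with 1 symbol per replicate, the mean as a bar and the SD as a whisker (n = 3). MXD4 and MXD1 lie near 30 FPKM, MYC to MGA form an overlapping run near 5, and MYCL is lowest.

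The 10 genes carried m6A peaks of very different number and strength. The fold enrichment of a peak is the authors' ratio of IP over input, given without an error, and its log10 FDR is also theirs. Enrichment ran from 1.18 in an exon peak of MAX to 13.1 in a 3' UTR peak of MXD3, with a median of 3.61 over the 44 peaks. The median was 4.53 over all listed peaks and 3.73 over peaks of genes at 1 FPKM or more. By region, 3' UTRs held 21 of the 44 peaks (47.7%), against 46.3% of the peaks of genes at 1 FPKM or more. 5' UTRs held 10 (22.7%, against 28.5%), and exons outside UTRs held 13 (29.5%, against 25.3%). An FDR under 0.05 was given for 41 of the 44 (93.2%), against 93.4% of the peaks of genes at 1 FPKM or more and 87.4% of all listed peaks.

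In each MYC family gene the peaks of lowest FDR lay in the 3' UTR. MYC had 3 peaks on chromosome 8. The 3' UTR peak at 127740585 to 127741423 had an enrichment of 8.96 and an FDR below the smallest number the list holds. The others were labelled 5' UTR, with 2.61 at 127736183 to 127736482 (log10 FDR -14.6) and 3.38 at 127738490 to 127738879 (log10 FDR -59.4). The enrichment of MYC peaks was thus higher the nearer they lay to the 3' end. MYCN also had 3 peaks, with 7.66 in the 3' UTR on chromosome 2 at 15945699 to 15946561 (log10 FDR -28.4). Its exon 2 peak of 90 bases (3.73) and its peak of 179 bases at the transcript start (4.19) had log10 FDR of -2.19 and -1.45. MYCL, the least abundant of the 10, had 5 peaks on chromosome 1. Its 3' UTR peaks at 39896714 to 39897702 (7.52, log10 FDR -20.6) and 39895845 to 39896654 (7.22, log10 FDR -9.54) lay side by side. The remaining MYCL values were 9.31, 4.66 and 4.66 with log10 FDR of -1.47, -1.21 and -1.10, and one peak at 4.66 carried an exon of the antisense gene MYCL-AS1. The last pair did not pass an FDR of 0.05.

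**Figure D2:**
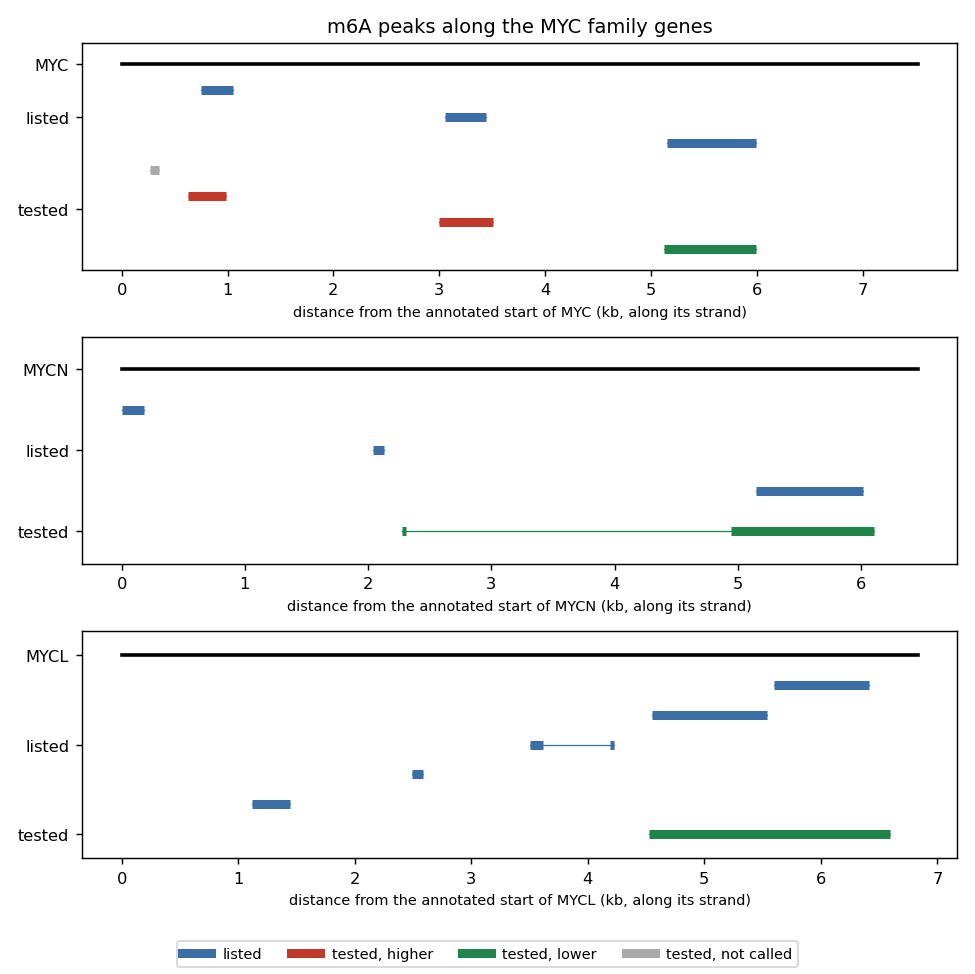
Exon blocks of listed peaks (blue) and of peaks tested between treatments (red higher, green lower, grey not called) along MYC, MYCN and MYCL, by distance in kb from the annotated gene start. In each gene the tested peak near the 3' end is green, and the red blocks of MYC lie upstream of it.

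The partners MAX and MLX differed from each other. MAX had 6 listed peaks on chromosome 14, of which 3 share bases, so that their 4311 summed exonic bases cover 2959 distinct ones. The sharing peaks begin at 65061196, 65061215 and 65061240 and had enrichments of 9.63, 5.74 and 7.24 (log10 FDR -121, -124 and -122). The latter pair lie within the span of FNTB, and the first touches it with 1 of its 3 exon blocks. FNTB is a farnesyltransferase subunit gene of the opposite strand at 5.20 ± 0.272 FPKM (SD, n = 3). One of the peaks ends at 65061803, where the table ends the readthrough gene CHURC1-FNTB. The libraries mark strand, but no source used here says whether peak calling used it. Reads of MAX and FNTB over these bases then cannot be told apart. Clear of that span, MAX had a 3' UTR peak of 2.85 at 65075670 to 65076598 (log10 FDR -115) and a 5' UTR peak of 1.94 from the transcript start. Its exon peak of 61 bases (1.18) carried an exon of another gene.

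By the highest peak of each gene, MLX, on chromosome 17, was the lowest of the 10. Its 3' UTR peak at 42571560 to 42571920 had an enrichment of 2.83 (log10 FDR -98.9). Peaks of 1.43 and 1.28 both begin at 42572969 and share bases. They lie within the span of PSMC3IP, a recombination gene of the opposite strand at 31.9 ± 3.62 FPKM (SD, n = 3), above MLX itself. Blocks 3 and 4 of the longer one lie past the annotated end of MLX. The longer one was labelled 5' UTR in the peak list, while a tested peak with the same start was labelled 3' UTR, so the region label depends on the transcript assigned.

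By the highest peak of each gene, MXD3 stood first and MXD4 last among the repressors, while MGA had the most peaks. MXD3 had the strongest peak of the network, 13.1 in its 3' UTR on chromosome 5 at 177307031 to 177308019 (log10 FDR -271), higher than 93.5% of all listed peaks. Its 5' UTR peaks had 2.54 at 177311371 to 177311887 and 3.49 at 177311976 to 177312126. MXD1 had 3 peaks on chromosome 2 labelled 3' UTR. The peak at 69916424 to 69938632 spans 22209 genomic but 1080 exonic bases in 5 blocks and had 5.99, and the peaks at 69939590 and 69940129 had 2.88 and 5.34. MXD4, the most abundant member, had a single peak of 150 bases, on chromosome 4 at 2261960 to 2262109, which reaches the transcript start (3.30, log10 FDR -26.9). No 3' UTR peak was listed for MXD4.

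MNT had 6 peaks on chromosome 17, from 2.12 to 6.75. The highest lay at the transcript start, at 2400895 to 2401104 (log10 FDR -6.34), in the gene whose start window holds both motifs shown above. The peak with the lowest FDR, at 2386525 to 2389433 with 1735 exonic bases, had 4.07 (log10 FDR -33.0). MGA had 11 listed peaks on chromosome 15, a number that 115 of 17060 genes with a peak (0.674%) reach or pass, while the median was 3.0 for the members and 2.0 for all such genes. Of these 11, 8 lay in exons other than UTRs. The strongest were a 3' UTR peak at 41766009 to 41767777 (9.67, log10 FDR -226), a peak of 1559 bases in exon 16 at 41749207 to 41750765 (7.33, log10 FDR -110) and a peak of 6.36 at 41669064 to 41684428 (log10 FDR -73.4). The weakest, 1.53 and 1.73, were also exon peaks, so enrichment within MGA spanned most of the range seen over the 10 genes.

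**Figure D3:**
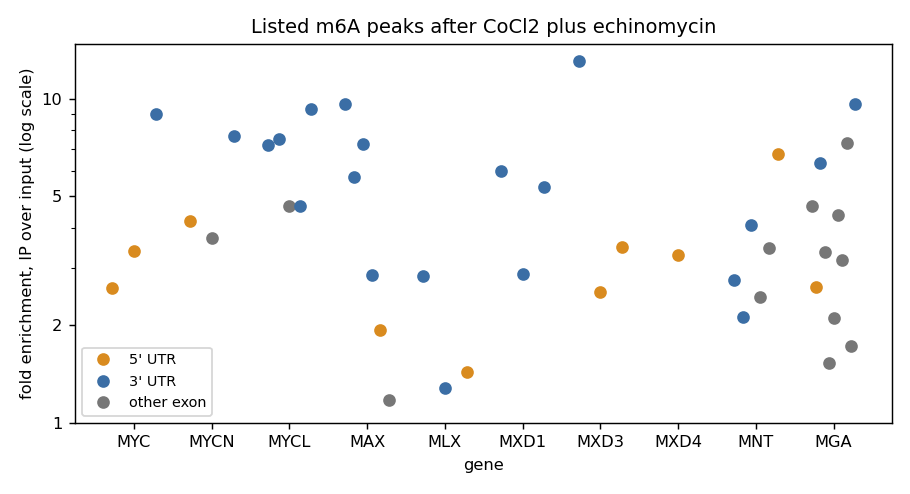
Fold enrichment of IP over input (log axis) for each of the 44 listed peaks, by gene and coloured by region. The highest point is the 3' UTR peak of MXD3 at 13.1, MLX lies between 1.28 and 2.83, and MXD4 has a single point at 3.30.

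The comparison with CoCl2 alone asks what echinomycin adds to the hypoxia mimic. Its fold change is log2 of m6A enrichment after both agents over CoCl2 alone, by the order of the names in the table, and the labels do not state that order. Of 365 peaks at a log2 of 3 or more in the authors' deposited table, 364 overlapped a listed peak of the combined treatment, against 65 of 236 below -3. A peak counted as changed at the authors' FDR under 0.05, and higher or lower means its m6A enrichment, not its RNA level. The table gives 1 value per peak and no error, and no source used here says whether its FDR covers replicate error.

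Tested peaks labelled 3' UTR were lower in all 3 MYC family genes and in MGA. They were higher in MXD1, MLX and MNT, and went both ways in MAX. In the authors' deposited table, 21 of 23 member peaks changed (91.3%). The share was 68.9% over all tested peaks and 77.1% over tested peaks of genes at 1 FPKM or more. Of the 23 member peaks 12 were higher (52.2%), against 23.1% of all tested peaks, and 9 were lower (39.1%), against 45.8%. Several peaks share a gene and some share bases, so these are not 12 and 9 independent cases. Peaks labelled 3' UTR made up 14 of the 23, and in the authors' deposited table all 14 changed, 7 higher and 7 lower. Of all 3' UTR peaks tested there 76.6% changed, 22.9% higher and 53.7% lower. Taking the peak of lowest p per gene, all 9 genes of the authors' deposited table changed, against 75.3% of all genes with a tested peak. Of these 4 were higher (MAX, MLX, MXD1 and MNT), against 22.6%, and 5 lower (MYC, MYCN, MYCL, MXD3 and MGA), against 52.7%. By the authors' deposited table, the log2 fold change had a median of 0.19 over the 23 peaks. The median was -0.43 over all peaks and -0.38 over peaks of genes at 1 FPKM or more. Over 1 peak per member gene the median was -0.46, against -0.50 over all genes in the authors' deposited table. The sign of the members' median thus depends on how peaks are counted. Changes of 2-fold or more were given for 4 member peaks of the authors' deposited table. Higher were 1 peak each of MLX, MXD1 and MXD3 (3 of 23, against 6.01% of all tested peaks and 4.74% of 3' UTR peaks). Lower was that of MYCN (1 of 23, against 11.2% and 10.8%).

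MYC changed in both directions along its length. By the authors' deposited table, its 3' UTR peak at 127740555 to 127741423 fell by 0.83 on the log2 scale to 0.563 of the CoCl2 value (log10 FDR -47.6). Upstream, the peak at 127736063 to 127736422 rose by 0.80 (log10 FDR -5.76) in the authors' deposited table. The peak at 127738430 to 127738939 rose by 0.19 there, close to the threshold with a log10 FDR of -1.36 in the authors' deposited table. The most 5' peak, of 87 bases at 127735702, stood at -1.32 in the authors' deposited table and did not pass (log10 FDR -0.394). It was also the 1 tested peak of the 23 that overlapped no listed peak. The upstream MYC peaks lie in the span of the antisense gene CASC11, which was at 0.00378 FPKM. The strongest mark of MYC was thus the one that was lower.

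MYCN and MYCL each had 1 tested peak. That of MYCN at 15942824 to 15946650 fell by 1.03 on the log2 scale (log10 FDR -10.6) in the authors' deposited table. That of MYCL at 39895666 to 39897732, which spans both of its strong listed peaks, fell by 0.90 (log10 FDR -5.38) in the authors' deposited table. The 3' UTR values of the family were thus close to each other. Lower was also the most common outcome among all tested 3' UTR peaks (53.7%).

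MAX also changed in both directions. In the authors' deposited table the peak clear of FNTB at 65075670 to 65076538 rose by 0.51 (log10 FDR -26.7), and the 5' UTR peak from 65101628 rose by 0.26 (log10 FDR -3.04). The peaks that touch the FNTB span, which share bases, were at -0.56, -0.73 and -0.47 in the authors' deposited table (log10 FDR -7.12, -14.8 and -3.57). All MAX values below 0 therefore belong to peaks that touch the FNTB span, though 2 of the 3 exon blocks of the first lie beyond it. The part of FNTB in them was not tested. MLX rose by 1.25 in its own 3' UTR at 42571620 to 42571890 (log10 FDR -44.8) in the authors' deposited table. The peak listed under MLX in the PSMC3IP span rose by 0.61 (log10 FDR -9.31) in the authors' deposited table. Blocks 3 and 4 of that peak begin 6243 and 6410 bases from the start of MLX, past its annotated span of 6172 bases. The part of PSMC3IP in it was not tested.

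**Figure D4:**
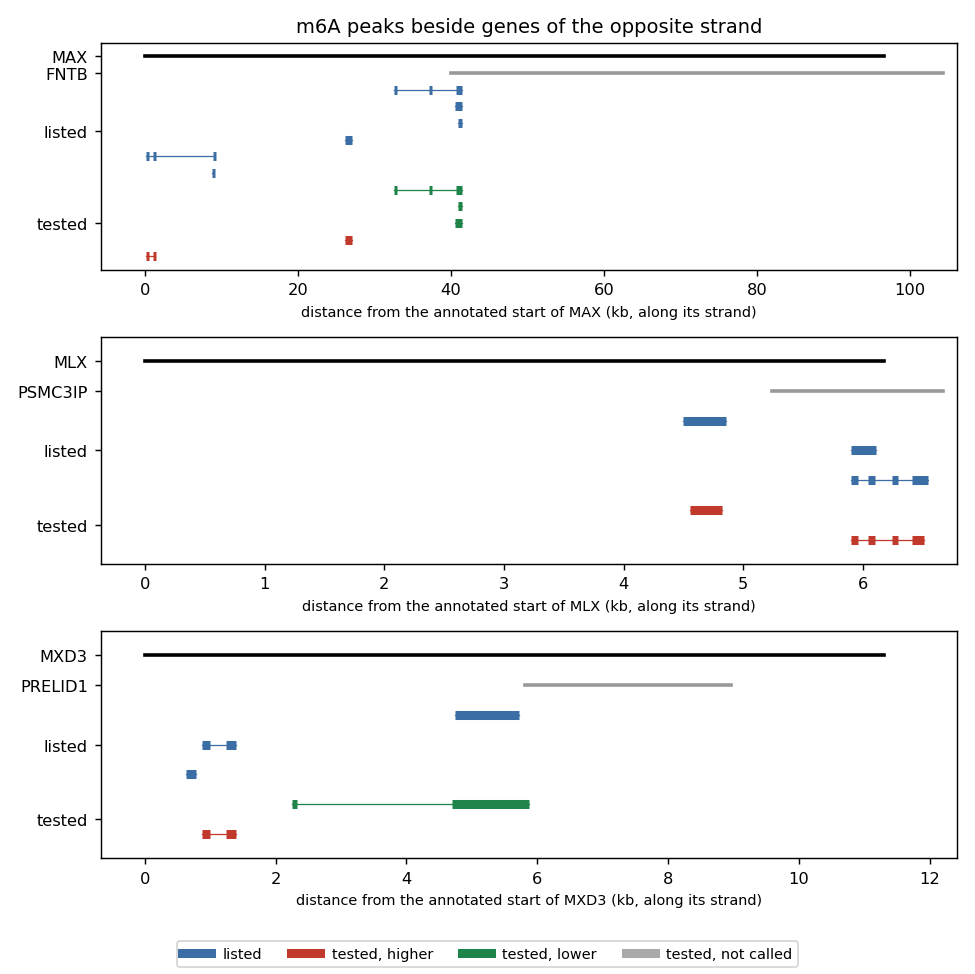
Listed and tested peaks of MAX, MLX and MXD3 by distance in kb from the annotated gene start, with the span of a gene of the opposite strand in grey where the axis covers it. The lower (green) peaks of MAX reach into the span of FNTB, and its higher (red) peaks lie outside.

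All 3 tested peaks of MXD1 were higher. In the authors' deposited table, the peak at 69939620 to 69940010 rose by 1.22 on the log2 scale, or 2.33-fold (log10 FDR -70.0), the lowest FDR of any member. The next one, at 69940099 to 69940639, rose by 0.33 (log10 FDR -5.68), and the long spliced peak by 0.16 (log10 FDR -3.49) in the authors' deposited table. The MXD1 peak that rose most was the weakest of its 3 listed peaks, at 2.88. MNT rose in both tested peaks of the authors' deposited table, by 0.85 at 2386525 to 2389433 (log10 FDR -16.8) and by 0.89 at 2391914 to 2393778. The second of these was just inside the threshold, at a log10 FDR of -1.31 in the authors' deposited table against -1.3.

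MXD3 and MGA did not follow them. In the authors' deposited table the MXD3 peak at 177306881 to 177310502, which holds its strongest listed mark, fell by 0.46 (log10 FDR -4.58). That peak was labelled 5' UTR, though the listed mark it holds was labelled 3' UTR, so the 3' UTR counts above leave it out. The other MXD3 peak labelled 5' UTR, at 177311371 to 177311887, rose by 1.18 (log10 FDR -4.12) in the authors' deposited table. The falling peak shares 69 bases with the end of PRELID1, a gene of the opposite strand at 35.2 ± 1.03 FPKM (SD, n = 3), and the part of that gene was not tested. MGA fell by 0.55 in its 3' UTR at 41766009 to 41767837 (log10 FDR -18.7) in the authors' deposited table. A spliced MGA peak labelled 5' UTR, at 41621284 to 41684518, fell by 0.45 (log10 FDR -4.95) in the authors' deposited table. The blocks of this spliced peak run from 60 to 63294 bases past the gene start. They cover the listed peak of 6.36, which was labelled 3' UTR. The MGA exon 13 peak, at 0.25 in the authors' deposited table, did not pass (log10 FDR -1.06). Its strong exon 16 peak had no tested counterpart, as was true of 17 of the 44 listed member peaks.

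Leaving out the 9 tested peaks that touch the span of another gene, 9 of 14 peaks in the authors' deposited table were higher and 4 lower. MYC then kept its lower 3' UTR peak as its only one, MXD3 kept only its higher peak, and MAX only its higher ones. MYCN and MYCL lost no peak. The 2 higher MYC peaks were left out because they touch CASC11, which was at 0.00378 FPKM against 5.43 for MYC. The lower MGA peak labelled 5' UTR was left out for AC016134, at 0.0954 FPKM. Both directions within 1 gene were seen for MYC, MAX and MXD3, 3 of the 7 members with more than 1 tested peak. Both directions were given for 22.9% of all such genes in the authors' deposited table.

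**Figure D5:**
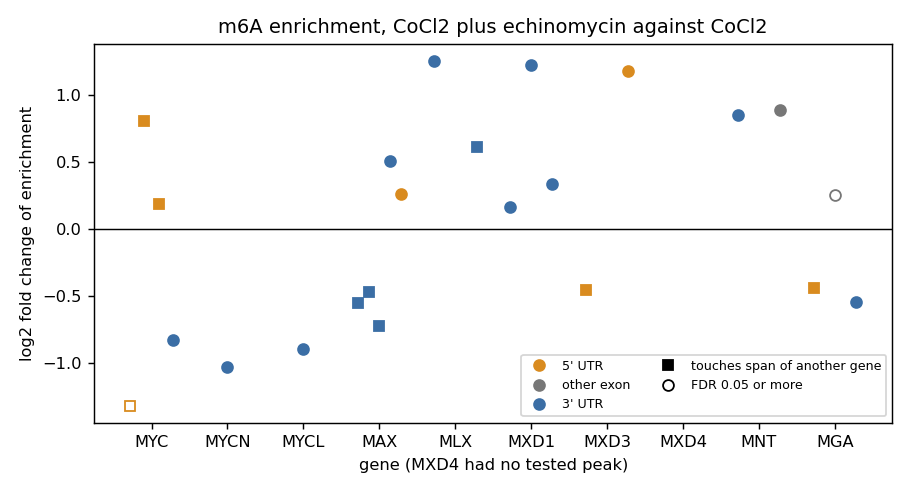
Log2 fold change of m6A enrichment, CoCl2 plus echinomycin against CoCl2, for the 23 tested peaks by gene, coloured by region, with squares for peaks that touch the span of another gene and open symbols for an FDR of 0.05 or more. All filled points of MYCN, MYCL and MGA lie below 0, all of MLX, MXD1 and MNT above 0, and MYC, MAX and MXD3 have both.

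Other genes of the pathway were taken as 6 lists of 85 symbols in all, of which 82 were matched in the expression table. Among network partners outside the 10 genes, MXI1, a further MXD-type repressor, had 2 listed peaks and no tested one at 8.42 ± 0.324 FPKM (SD, n = 3). MLXIP, a partner of MLX, was at 10.8 ± 0.478 FPKM (SD, n = 3) and fell by 0.48 (log10 FDR -28.0) in the authors' deposited table. MYCBP2, a large ubiquitin ligase, rose by 0.27 (log10 FDR -3.76) in the authors' deposited table. MLXIPL was at 0.0264 FPKM.

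The other lists were described by the peak of lowest p per gene, beside 22.6% higher and 52.7% lower over all tested genes. Genes that MYC is known to induce were mostly higher at that peak. Among 15 tested MYC-induced genes, the authors' deposited table gave 10 as higher and 2 as lower, with a median of 0.39, against -0.50 over all genes. Of all 11315 tested genes 7983 were at 1 FPKM or more, against 29 of the 30 genes of this list. The list was chosen with earlier results of these data known. The 4 of lowest p in the authors' deposited table were PTMA, encoding a chromatin-associated acidic protein, at 0.56, the nucleolar gene NCL at 0.64, the transferrin receptor gene TFRC at 0.53 and the ribosome biogenesis gene NOP56 at -0.53. PTMA and NPM1 were the most abundant of this list, at 109 ± 2.27 and 94.0 ± 2.19 FPKM (SD, n = 3), and NPM1 had no tested peak. With the mean over each gene's peaks, NOP56 turned to 0.23 and NCL came to 0.071 in the authors' deposited table. By the sign of that mean 5 of the 15 lay below 0, among them HSPD1 at -0.02 and EIF4E at -0.43 in the authors' deposited table. Among 16 cofactor and chromatin genes it was 12 lower and 2 higher in the authors' deposited table, with a median of -0.59, close to the -0.50 of all genes. CDK9, the kinase of transcription elongation, was at -0.60, the corepressor SIN3A at -0.62, HCFC1 at -0.64 and the acetyltransferase gene KAT2A at -0.86 in the authors' deposited table. SIN3A came to -0.069 over its peaks in the authors' deposited table. PAF1, at 33.2 ± 0.0579 FPKM (SD, n = 3), was at -0.59 in the authors' deposited table.

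Regulators of MYC protein stability went both ways. By the authors' deposited table, 8 of 14 were lower and 4 higher, shares near those of all tested genes (52.7% and 22.6%), with a median of -0.35. The MYC ubiquitin ligase gene FBXW7 was at -0.95, the mitotic kinase AURKA at -0.67, FBXL14 at -0.69 and the ligase HUWE1 at -0.35 in the authors' deposited table, and HUWE1 came to 0.052 as a mean over its peaks. USP36, a nucleolar deubiquitinase, was at 0.33 and SKP2, another MYC ligase subunit, at 1.48 in the authors' deposited table. Only 4 genes that MYC represses were tested, and 3 were lower, against 52.7% of all tested genes, namely the cell cycle inhibitors CDKN1B at -0.48 and CDKN2B at -0.61 and the stress gene GADD45A at -0.62 in the authors' deposited table. CDKN2B stood at 0.0256 FPKM, and DDIT3 of the same list, at 46.3 ± 1.35 FPKM (SD, n = 3), had no tested peak. Of genes beside MYC, PVT1, a long noncoding RNA, had 9 tested peaks at an input level of 0.192 FPKM. Its peak of lowest p stood at -5.17 in the authors' deposited table with a log10 FDR of only -1.58, and the mean over its peaks was -0.55 in the authors' deposited table. CYRIB, the 1 expressed gene of that list, was at 6.52 ± 0.115 FPKM (SD, n = 3), with 2 listed peaks and no tested one.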

How the data were processed

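The members and the gene lists were chosen with earlier results of these data known. FPKM was deposited by the authors per gene and input library, and 6 other per-sample columns of that table were not used. For each listed peak the deposited values are a fold enrichment (ratio), a p-value, and log10 p and FDR. The log10 values were treated as a score, since the authors' list holds minus infinity among them. For each tested peak the authors deposited a log2 fold change, a p-value and a log10 FDR. The submitters' processing notes name fastp, HISAT2, HOMER and ChIPseeker without saying what each did. No source used here names the peak caller, genome build or annotation release. Depth is unknown from FPKM.

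Exon blocks were read from block sizes and starts, and positions are those of the tables. An overlap needed at least 1 shared base. Levels were described by the range over 3 libraries, since samples of only 1 condition were used. No set test was run. The named genes were the 10 members, and from each list up to 4 changed genes by lowest p and up to 2 expressed genes by highest FPKM. MLXIPL, HSPD1, EIF4E, the cell markers and overlapping genes were named beside them after their values were seen. The calculation of overlap between peak spans was tested on simulated data. Python 3.11.15, numpy 2.4.6, pandas 2.3.3 and matplotlib 3.10.9 were used.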

Additional observations from a re-analysis of the deposited data

How the results depend on the processing

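With 3 replicates, a mean without 1 of them or a median always lies within 1 SD of the full mean. The 40 such values of input FPKM therefore could not show how stable the levels are. At 5 FPKM, 5 members counted as expressed in place of 9. The median enrichment was 8.31 with the highest peak of each gene. With a 2-fold limit, 4 member peaks changed, 3 higher and 1 lower (25.0% lower). Without peaks that touch another gene's span, chosen after the data were seen, 13 changed and 4 were lower. The median log2 fold change over all tested member peaks turned to -0.46 with the peak of lowest p per gene, to -0.20 with the mean per gene and to -0.55 with the peak farthest from 0. MAX turned to -0.20 with the mean and to -0.73 with the peak farthest from 0. MXD3 turned to 0.36 with the mean, and to 1.18 with the peak farthest from 0 and without peaks touching another gene. These values come from different peaks of the same genes. MYC at -1.32, its peak farthest from 0, no longer passed. Of 36 settings of the lists, 24 stayed within 1.5 times the count. No paired analysis was possible because the files hold no IP value per replicate. Depth per library is unknown.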

Other observations

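Certain values of fold enrichment recur throughout the peak list. The 6 most frequent, 4.66, 5.59, 6.52, 7.45, 8.38 and 9.31, are spaced by 0.93 and together account for 6015 of 42634 listed peaks (14.1%). They make up 6.96% of peaks of genes at 1 FPKM or more and 27.7% of the other peaks. Among the members, 4 of 44 peaks carry such a value, 3 of MYCL (9.31, 4.66 and 4.66) and 1 of MGA (4.66, 61 bases). Their log10 FDR was -1.47, -1.21, -1.10 and -0.785. The 3 member peaks with an FDR of 0.05 or more are all among these 4. The MYCL value of 9.31 lies at percentile 83.4 of all listed peaks, above the 3' UTR peak of MYC at 8.96, whose log10 p was -475 against -2.09 for MYCL.

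The single peak of MXD4, the most abundant of the 10 genes, covers 150 bases, while MGA, at 4.14 FPKM, had 7232 exonic bases in peaks. MXD1, at 27.9 FPKM, had 2012. What sets these amounts apart was not tested.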
